A study of Drosophila melanogaster with 33 samples.

Results

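Of 36210 regions of open chromatin in the adult Drosophila melanogaster brain, 4333 (12.0%) were called as a peak in all 33 libraries and also held at least 1 annotated transcription start; these constitutive start regions were chosen by that measured presence and are described here. Peaks of the 33 lists that shared 1 bp or more were merged, and a merged region was kept when each library had a peak in it and a transcription start of the dm6 gene models lay inside it. The start regions made up 47.9% of the 9040 regions called in every library and 57.6% of the 7524 merged regions that held a start. Presence of a peak in all libraries is itself a measured value, so the fact that these regions were open everywhere is the rule and not a result. The other 4707 regions called in every library held no annotated start and are called distal below; they passed the same condition and are the set against which the start regions were read.

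ATAC-seq, in which the transposase Tn5 inserts sequencing adapters into accessible DNA, was carried out on cells sorted from pooled adult brains. Clock neurons were the GFP-positive cells of flies in which Clk-GAL4, a driver active in nearly all clock neurons, expressed nuclear GFP (UAS-GFP-NLS), so each clock neuron library is a pool of many clock neuron types. Non-clock cells were the GFP-negative cells, a mixture of other neurons and glia, whose labels give no time of collection. The per01 clock neurons, from males carrying a null allele of period together with the same driver and reporter, were collected in constant darkness (DD) at CT36 (subjective dusk, 4 libraries) and CT24 (subjective dawn, 4 libraries). Wild-type (WT) clock neurons, which carry the driver and reporter alone, were collected in DD at CT36 (3 libraries) and CT24 (3 libraries) and in light-dark cycles (LD) at ZT12 (dusk, 4 libraries) and ZT0 (dawn, 4 libraries). Non-clock cells came from per01 flies in DD (4 libraries), WT flies in DD (3 libraries) and WT flies in LD (4 libraries). The labels give no sex for WT flies, and the study's methods describe brains of both sexes. Replicates are described as biological by the study. Nothing in the peak lists can check the per01 allele, since a nonsense change in the coding sequence need not alter the opening of the gene's start.

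The signal of a region was the number of tags at its highest summit, where a tag is a read end extended to 74 bp, recovered from the deposited peak scores. Levels are given as CPM (tags per M tags of the library, M standing for mega), and changes as log2 differences fitted with limma on log2(scaled tags + 1), with p-values adjusted by Benjamini-Hochberg over all regions tested and a threshold of 0.1. Depth was 4.18 M to 17.0 M tags in the 22 clock neuron libraries and 16.7 M to 36.2 M in the 11 non-clock libraries, so depth and cell type cannot be told apart by these data. Of 11 clock neuron marker genes, 10 had a merged region at a start and 6 had one among the constitutive set; their summed level was 102 to 146 CPM in clock neurons and 94.9 to 121 CPM in non-clock cells. The start region of Clk itself had no peak in any clock neuron library, and CCHa1 had none anywhere. The Clk start region had a peak in 10 libraries, all of them non-clock. The study, which read the signal and not the peak calls, reports the Clk promoter as more accessible in clock neurons. For glia, 8 of 10 markers had a start region, with sums of 22.7 to 40.9 CPM in clock neurons and 39.9 to 51.9 CPM in non-clock cells; wrapper, Gs2 and axo were at 0 in the clock neuron libraries, and alrm and Indy had no region. The pan-neuronal markers (6 of 6) summed to 118 to 162 CPM in clock neurons and 143 to 177 CPM in non-clock cells, and those of Kenyon cells (6 of 6) to 109 to 136 and 115 to 133 CPM. Photoreceptor markers had a start region in 2 of 8 cases (9.84 to 18.2 CPM in clock neurons, 12.1 to 18.6 CPM in non-clock cells), and none of 5 hemocyte and fat body markers had one. The part that the makeup of the sorted cells has in the differences below was not tested.

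An open start region is the nucleosome-depleted stretch at which general transcription factors and RNA polymerase II assemble. In flies, starts used in most cells often carry the DNA replication-related element (DRE, bound by Dref) or Motif 1 (bound by M1BP), whereas GAGA repeats are bound by Trl and keep many regulated promoters open. In the circadian clock, CLOCK and CYCLE activate per, tim, vri, Pdp1 and cwo through E-boxes, and PER and TIM then repress their own transcription. On the X chromosome of males, the dosage compensation complex, which contains the noncoding RNAs roX1 and roX2, raises transcription of X-linked genes.

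The sequences below are those of 10 start regions on which the results turn: both tim starts, the start regions of Dh44 and lncRNA:CR44059 that differed most between cell types, Argk1 of the time comparison, lncRNA:roX1, lncRNA:roX2 and Septin1 of the light comparison, and pbl and RpL36A of the genotype comparison. Each runs 5′ to 3′ on the strand of its gene, from 100 bases before the start to 30 bases after it, read from the dm6 reference genome; the downstream tim start is shown from 250 bases before, since its E-box lay further up. Capitals mark matches, on either strand, to 7 short motifs: the DRE (TATCGATA), the Motif 1 core (GGTCACAC), the Motif 7 core (CAGCNCT), the canonical E-box (CACGTG), the VP-box (TTATGTAA), a TATA string (TATAAA) and a GAGA repeat (GAGAGAG). None of these strings contains another.
tim, downstream start (chr2L:3507189-3507468, minus strand): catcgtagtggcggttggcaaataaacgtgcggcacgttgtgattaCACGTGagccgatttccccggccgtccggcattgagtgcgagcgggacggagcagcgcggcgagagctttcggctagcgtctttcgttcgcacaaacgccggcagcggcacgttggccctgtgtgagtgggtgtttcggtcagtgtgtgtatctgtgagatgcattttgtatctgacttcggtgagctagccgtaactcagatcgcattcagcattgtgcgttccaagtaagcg
tim, upstream start (chr2L:3508090-3508219, minus strand): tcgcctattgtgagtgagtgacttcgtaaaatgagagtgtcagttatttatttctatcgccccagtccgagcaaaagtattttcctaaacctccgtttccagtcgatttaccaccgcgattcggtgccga
Dh44 (chr3R:9640452-9640581, plus strand): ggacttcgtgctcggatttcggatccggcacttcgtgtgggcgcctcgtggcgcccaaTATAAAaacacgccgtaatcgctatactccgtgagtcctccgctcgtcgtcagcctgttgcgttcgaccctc
lncRNA:CR44059 (chr2L:4249647-4249776, minus strand): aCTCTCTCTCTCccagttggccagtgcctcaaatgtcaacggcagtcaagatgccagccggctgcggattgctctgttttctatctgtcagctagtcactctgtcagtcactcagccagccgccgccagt
Argk1 (chr3L:9051872-9052001, minus strand): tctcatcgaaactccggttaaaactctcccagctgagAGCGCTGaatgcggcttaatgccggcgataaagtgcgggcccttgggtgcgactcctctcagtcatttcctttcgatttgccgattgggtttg
lncRNA:roX1 (chrX:3862396-3862525, minus strand): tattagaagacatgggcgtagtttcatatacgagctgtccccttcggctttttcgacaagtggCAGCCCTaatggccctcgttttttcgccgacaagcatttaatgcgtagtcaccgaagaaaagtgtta
lncRNA:roX2 (chrX:11578965-11579094, plus strand): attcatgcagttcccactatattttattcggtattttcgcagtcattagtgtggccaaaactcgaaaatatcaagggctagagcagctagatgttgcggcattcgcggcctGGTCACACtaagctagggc
Septin1 (chrX:21358186-21358315, plus strand): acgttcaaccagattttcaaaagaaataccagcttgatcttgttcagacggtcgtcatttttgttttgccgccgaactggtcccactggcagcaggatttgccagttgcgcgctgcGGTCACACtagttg
pbl (chr3L:7911925-7912054, minus strand): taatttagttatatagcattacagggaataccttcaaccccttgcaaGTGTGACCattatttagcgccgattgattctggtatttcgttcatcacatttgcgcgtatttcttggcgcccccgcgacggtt
RpL36A (chr2L:8042880-8043009, minus strand): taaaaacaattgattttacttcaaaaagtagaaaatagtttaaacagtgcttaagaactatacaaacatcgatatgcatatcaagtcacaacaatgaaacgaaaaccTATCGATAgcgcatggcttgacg
The capitals are the E-box of the downstream tim start, the TATA string of Dh44, GAGA repeats read on the opposite strand in lncRNA:CR44059, the Motif 7 core in Argk1 and lncRNA:roX1, the Motif 1 core in lncRNA:roX2, Septin1 and pbl, and the DRE in RpL36A. The upstream tim start held none of the 7 strings in the bases shown. A match is a description of the letters and not evidence of binding.

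The constitutive start regions were compact. Their median width was 642 bp (quartiles 314 and 1056 bp), against 542 bp for distal regions. The summit lay a median of 29 bp upstream of the nearest start, 78.5% of summits were within 150 bp of it, and 171 regions had a summit more than 500 bp away. The summit also moved little between libraries, with an SD of at most 30 bp in 66.5% of start regions, against 50.9% of distal regions. A single start was held by 3057 regions and at least 2 by 1276, and 745 (17.2%) held starts on both strands, against 12.5% of all merged regions with a start. The regions held starts of 4851 genes, which included 4367 of 13986 protein-coding genes (31.2%), 336 of 3304 noncoding RNA genes and 113 of 312 tRNA genes.

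Every major chromosome arm contributed, with 745 regions on 2L, 896 on 2R, 877 on 3L, 1030 on 3R and 721 on X. Chromosome 4, the small and largely heterochromatic autosome, held 64 of them, which was 78.0% of its regions with a start, against 54.7% to 59.8% on the other arms. None of the 16 merged regions on Y belonged to the set.

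Genes that most cells use were not uniformly in the set. A start lay in a constitutive region for 58 of 86 cytoplasmic ribosomal protein genes, 30 of 73 mitochondrial ribosomal protein genes, 34 of 76 oxidative phosphorylation genes, 15 of 48 proteasome genes, 29 of 52 translation factors, 31 of 61 genes of RNA polymerase II and its general factors, and 13 of 29 vacuolar ATPase genes. Neuronal genes were also present, with 14 of 15 synaptic and pan-neuronal genes, 16 of 17 neuronal transcription factors and 6 of 15 neuropeptide genes. The other lists were 5 of 7 core clock genes, 10 of 12 clock kinases, phosphatases and degradation factors, 6 of 14 promoter and boundary factors, 3 of 5 dosage compensation proteins and 12 of 17 heat shock and stress genes.

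Over all 33 libraries the mean level of a constitutive start region had a median of 11.4 CPM (lowest 2.86, highest 76.6 CPM), against 8.53 CPM for distal regions. The highest were the start regions of pre-rRNA:CR45856 (76.6 CPM on average, with 59.6 to 116.0 CPM in clock neurons and 47.5 to 78.7 CPM in non-clock cells), HmgZ, a high mobility group protein (67.4 CPM), lncRNA:CR45642 (67.1 CPM), cbt, a zinc finger transcription factor (64.4 CPM), and Bacc (64.2 CPM). The median summit of the cbt region lay at -675 bp from its start (upstream), so its level was not read at the start itself. The lowest 20% of the set, just inside the rule, had a median of 5.37 CPM (quartiles 4.73 and 5.98), and the 386 start regions called in 32 libraries, just outside it, had 4.53 CPM (3.94 and 5.57). Of those 386, 159 lacked a peak only in the shallowest library, per01 CT36 replicate 4 with 4.18 M tags, and 8 lacked one in a non-clock library.

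The typical level was alike in all 9 groups. In clock neurons the median over the start regions was 11.6 ± 0.35 CPM in per01 at CT36 and 11.5 ± 0.718 CPM in per01 at CT24 (SD, n = 4 each), against 10.9 ± 0.379 CPM in WT at CT36 and 11.1 ± 0.651 CPM in WT at CT24 (SD, n = 3 each). It was 10.9 ± 1.04 CPM at ZT12 and 10.7 ± 0.812 CPM at ZT0 (SD, n = 4 each). Non-clock cells had 11.5 ± 0.48 CPM in per01 DD (n = 4), 12.1 ± 0.473 CPM in WT DD (n = 3) and 12.1 ± 0.265 CPM in WT LD (n = 4), and the distal medians of the 9 groups lay between 8.10 and 9.18 CPM.

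**Figure D1:**
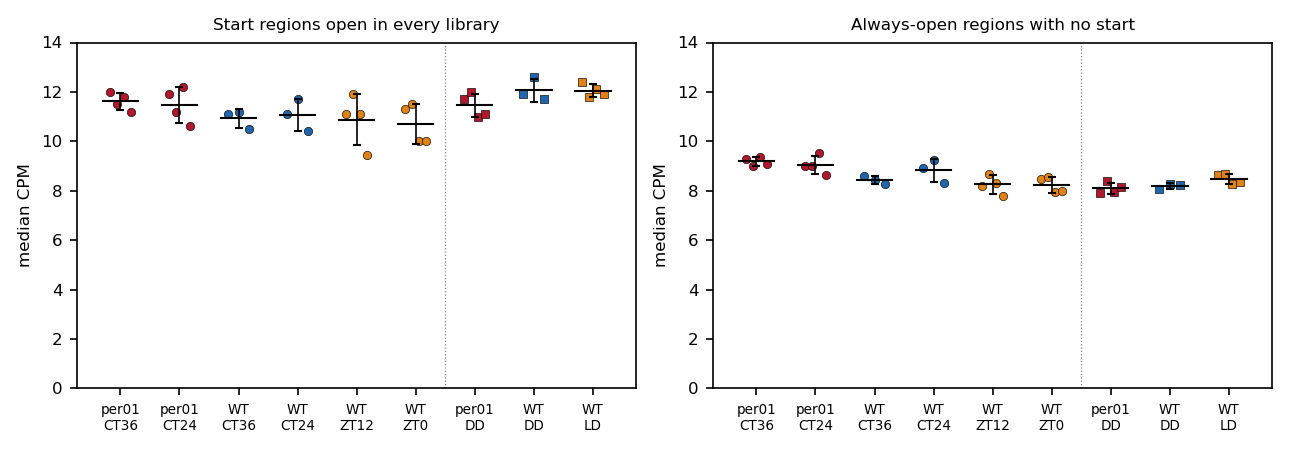
Median level (CPM, vertical axis) of the 4333 constitutive start regions and of the 4707 distal regions in each of the 33 libraries, by group; each point is 1 library. Group medians of start regions lie between 10.7 and 12.1 CPM and those of distal regions between 8.10 and 9.18 CPM.

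Start regions varied less across libraries than distal regions. The SD of log2 scaled tags over the 33 libraries had a median of 0.20 for start regions and 0.27 for distal regions, and it was under 0.25 for 3287 start regions (75.9%), against 43.1% of distal ones. The most even, among regions above the median level, was lolal, which encodes a BTB domain protein, with an SD of 0.07 and a range of 22.4 to 28.4 CPM. The start regions of Nt5c (a nucleotidase), Kdm2 (a JmjC domain protein), tRNA:Ser-AGA-2-4 and eRF3 (a translation release factor) each had an SD of 0.08. Kdm2 ranged from 29.7 to 41.3 CPM, and a difference of 0.16 between clock neurons and non-clock cells in DD still passed the threshold (adjusted p = 0.0149 by limma). Across the start regions, log2 levels of 2 libraries of the same group had a Pearson correlation of 0.94 to 0.989 (45 pairs), and those of a clock neuron and a non-clock library 0.866 to 0.965 with a median of 0.931 (242 pairs), against a median of 0.855 for distal regions. Regions share libraries and are no replicates of a condition, so these correlations are descriptive.

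The first comparison asked where clock neurons differed from the other cells of the brain. In LD, 463 constitutive start regions were higher and 1067 lower in clock neurons than in non-clock cells (10.7% and 24.6%), whereas of the 23186 regions tested 34.2% were called higher and 21.1% lower. In DD, 519 were higher and 1129 lower (12.0% and 26.1%), against 27.8% and 24.3% of 23554 regions tested. In per01 flies, 360 were higher and 870 lower (8.31% and 20.1%), against 26.3% and 21.4% of 21385. Calls towards clock neurons were less frequent than the background in the 3 comparisons, and calls towards non-clock cells were near it. The background also holds regions without a peak in some libraries, which the rule keeps out of the set, so this gap is not independent of the rule. Distal regions, which passed the same condition, had 35.5%, 35% and 32.1% higher in LD, DD and per01, and 24.4%, 15.5% and 18.4% lower. In a pool of cells, a more open region in each cell and a larger share of cells with it open cannot be told apart.

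Most of these differences were small. The median change of the start regions was -0.09 in LD, -0.10 in DD and -0.08 in per01, against 0.06, 0.09 and 0.05 for distal regions. A change of more than 2-fold passed the threshold in 41, 24 and 23 start regions, against 400, 320 and 324 distal regions. The 95% interval of the change lay wholly within 1.5-fold in 88.8%, 82.0% and 88.9% of start regions, against 54.4%, 57.2% and 59.8% of distal regions. Over the 3 comparisons, 228 start regions were higher in clock neurons each time, 279 were lower each time and 1731 (39.9%) passed in none, whereas 1124, 430 and 1161 (24.7%) of the distal regions did so.

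The direction of the small differences depended on how libraries were scaled. With the median of ratios, 30.3% of the called start regions were higher in clock neurons in LD, 31.5% in DD and 29.3% in per01. Scaled by total tags, these shares were 12.4% (280 higher, 1983 lower), 22.7% (375 and 1278) and 59.0% (509 and 354). Summing all summits of a region, they were 61.9% (884 and 544), 57.6% (867 and 639) and 54.6% (652 and 542). Clock neuron libraries split a start region into more peaks, with a mean of 1.38 to 1.53 peaks, against 1.15 to 1.42 in non-clock libraries, and covered fewer of its bases (314 to 491 bp, against 441 to 572 bp); the part of this in the differences was not tested. The regions picked by the naming rule kept their direction under each of these measures where they passed the test, apart from per, whose other values are given below.

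**Figure D2:**
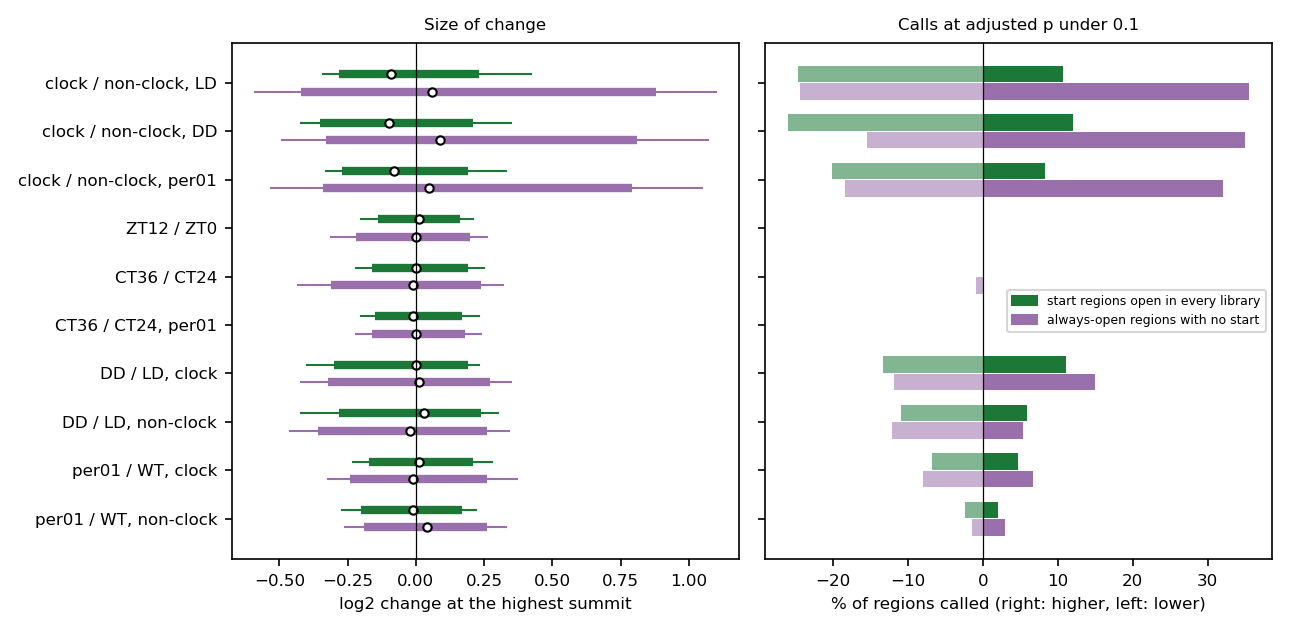
Left, the median log2 change in each comparison with the 10th to 90th percentile (thick line) and the 5th to 95th percentile (thin line), for constitutive start regions (green) and distal regions (purple); right, the percentage called higher (to the right) and lower (to the left, paler). In LD 10.7% of start regions were called higher and 24.6% lower in clock neurons, and next to none were called between dusk and dawn.

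The 10 start regions with the largest rises in clock neurons over the 3 comparisons belonged to 5 protein-coding genes and 5 noncoding RNA genes. That of Dh44, a diuretic hormone of the corticotropin-releasing factor family, had 9.52 CPM in the lowest, 12.3 in the median and 14.8 in the highest of the 22 clock neuron libraries, against 2.63, 3.15 and 3.83 CPM in the 11 non-clock libraries. The ranges did not overlap, and the log2 change was 2.01 (SE 0.15, adjusted p = 2.97e-08) in LD, 1.87 (SE 0.13, adjusted p = 2.6e-06) in DD and 1.86 (SE 0.11, adjusted p = 1.91e-09) in per01 by limma. The next coding genes were Oatp26F, an organic anion transporter (1.56, 1.29 and 1.48), RYa-R, the RYamide receptor (1.5, 1.34 and 1.45), and Lgr1, a glycoprotein hormone-type receptor (1.22, 1.52 and 1.27). The upstream start of tim was also among the 10 largest (1.40, 1.04 and 1.30). The other 5 were the noncoding RNA genes lncRNA:CR44644, lncRNA:CR44582, lncRNA:CR46060, lncRNA:CR44361 and lncRNA:CR44260, with changes of 1.02 to 1.91.

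Other neuropeptide genes on the list moved in both directions. Of the 6 with a constitutive start region, 4 were higher in clock neurons in each comparison: Dh44, Dh31 (a further diuretic hormone, log2 1.31, 0.96 and 0.96 in LD, DD and per01), sNPF (short neuropeptide F; 0.37, 0.33 and 0.33) and Nplp1 (a neuropeptide-like precursor; 0.30, 0.50 and 0.34). Tk, the tachykinin gene, was lower in each (-0.49, -0.40 and -0.27), although in per01 neither the value of -0.21 with scaling by total tags (adjusted p = 0.237) nor that of -0.27 with all summits summed (adjusted p = 0.103) passed, and Proc (proctolin) was lower in LD (-0.35), while its values of -0.10 in DD and -0.10 in per01 did not pass. Of 18 start regions of neuronal transcription factors, 6 were higher in each comparison and 4, 2 and 8 lower in LD, DD and per01, a balance that turned with scaling by total tags in LD (3 higher, 6 lower) and per01 (7 and 4). The eya region was higher (1.46, 0.91 and 0.90), as was toy (0.46, 0.53 and 0.32), and scro was lower (-0.50, -0.47 and -0.59).

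The region furthest in the other direction belonged to lncRNA:CR44059, with 3.44, 4.45 and 6.56 CPM in the lowest, median and highest clock neuron library, against 9.21, 13.7 and 22.9 CPM in non-clock cells. The sets of libraries did not overlap, and the log2 change was -1.62 in LD (SE 0.17, adjusted p = 1.71e-06 by limma), -1.42 in DD and -1.69 in per01. Sox102F, a Sox family transcription factor on chromosome 4, had 4.69, 6.90 and 9.09 CPM in clock neurons, against 14.4, 19.7 and 26.1 CPM in non-clock cells, with log2 changes of -1.60, -1.28 and -1.58. Regions of erm, a zinc finger transcription factor of neural progenitors (-1.05, -0.96 and -1.21), Svil, an actin-binding protein (-1.10, -1.04 and -1.06), hid, a promoter of apoptosis (-1.03, -1.15 and -0.81), Fhos, a formin (-0.70, -1.08 and -1.21), and SP1029, an aminopeptidase (-0.97, -0.75 and -0.95), were lower as well. The rest of the 10 were lncRNA:CR43856, CG7381 and pk, a planar polarity gene, with changes between -0.57 and -1.19; CG7381 did not pass in LD with all summits summed (-0.21, adjusted p = 0.337).

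Start regions of ribosomal protein genes were called lower more often than higher in clock neurons. Of 59 regions of cytoplasmic ribosomal protein genes, 0 were higher and 19, 38 and 16 lower in LD, DD and per01, with medians of -0.15, -0.32 and -0.17. For mitochondrial ribosomal proteins (30 regions) 0, 1 and 1 were higher and 9, 14 and 7 lower, and for oxidative phosphorylation (35 regions) 1, 0 and 0 were higher and 11, 18 and 6 lower. Proteasome genes (15 regions) had 0 higher in each comparison and 2, 8 and 0 lower, translation factors (31 regions) had 1, 2 and 1 higher and 6, 6 and 4 lower, RNA polymerase II and general factors (30 regions) had 0, 1 and 2 higher and 6, 12 and 3 lower, and the vacuolar ATPase (14 regions) had 2, 1 and 1 higher and 4, 7 and 5 lower. All 4333 start regions had 24.6%, 26.1% and 20.1% lower, so that the cytoplasmic ribosomal protein regions exceeded this share most in DD, where 38 of 59 were called. With all summits summed, cytoplasmic ribosomal proteins still had 12, 28 and 11 lower and 5, 4 and 3 higher. Proteasome genes had 2 higher and 2 lower in LD, 1 and 6 in DD and 0 and 0 in per01 under that measure, and oxidative phosphorylation 5 and 6 in LD, 5 and 11 in DD, and 3 and 2 in per01. Mitochondrial ribosomal proteins turned in LD (9 higher, 3 lower) but not in DD (4 and 6) or per01 (2 and 5). Translation factors had 5 and 2 in LD, 5 and 4 in DD and 3 and 3 in per01, RNA polymerase II and general factors 4 and 2, 3 and 6, and 3 and 3, and the vacuolar ATPase 4 and 2, 4 and 3, and 2 and 1.

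Neuronal and regulatory lists were mixed. Of all 4333 start regions, 10.7%, 12.0% and 8.31% were called higher in LD, DD and per01, and 24.6%, 26.1% and 20.1% lower. Synaptic and pan-neuronal genes (19 regions) had 0, 2 and 0 higher and 8, 1 and 10 lower in LD, DD and per01. Clock kinases, phosphatases and degradation factors (16 regions) had 2, 1 and 1 higher and 5, 6 and 4 lower, promoter and boundary factors (9 regions) had 0 higher in each and 3, 5 and 3 lower, and heat shock and stress genes (15 regions) had 3, 3 and 2 higher and 7, 5 and 3 lower. The dosage compensation regions of msl-1, msl-2 and msl-3 had 0 higher and 0, 1 and 0 lower. With all summits summed, synaptic and pan-neuronal genes had 3 higher and 3 lower in LD, 4 and 0 in DD and 1 and 4 in per01. Clock kinases and their partners had 7 and 3, 3 and 3, and 3 and 2 under that measure, and stress genes 5 and 2, 3 and 2, and 4 and 1, so the directions of these lists depended on the measure, other than that of the synaptic genes in DD and per01. Promoter and boundary factors had 0 and 3, 1 and 4, and 1 and 2. On chromosome 4, 27, 24 and 31 of 64 start regions were lower, with medians of -0.18, -0.19 and -0.20, and 18, 20 and 19 were lower with all summits summed.

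The calls also went with the level of the region, and not in the same way in each comparison. In the highest 20% (867 regions) 62 were higher and 370 lower in clock neurons in LD (median -0.13), 220 and 104 in DD (0.05), and 57 and 296 in per01 (-0.09). In the lowest 20% (866 regions) 103 were higher and 68 lower in LD, 53 and 238 in DD (-0.21), and 76 and 90 in per01. With all summits summed, the counts of the highest 20% were 173 and 154 in LD, 275 and 45 in DD, and 124 and 142 in per01, so that the rise in DD held under both measures and the falls in LD did not. Whether the difference between clock neurons and non-clock cells itself changed with light was tested as an interaction: 63 start regions had a larger and 16 a smaller value in DD than in LD, with 543 at an unadjusted p under 0.05, against 1.26% and 2.49% of the 28098 regions tested.

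Among the core clock genes, per, vri, Pdp1 and cwo each had 1 constitutive start region and tim had a pair of them, 1 at a downstream and 1 at an upstream start; Clk and cyc had none, with peaks at the start region in at most 10 and 32 libraries. Of the 6 regions, 3, 4 and 3 were higher in clock neurons in LD, DD and per01 and 1, 0 and 0 lower, with medians of 0.51, 0.41 and 0.49. The tim downstream start had 9.36, 17.3 and 26.3 CPM in the lowest, median and highest clock neuron library, against 4.56, 7.36 and 11.1 CPM in non-clock cells, with log2 changes of 1.40 (SE 0.16, adjusted p = 3.88e-06), 1.13 (SE 0.23, adjusted p = 0.00216) and 1.09 (SE 0.12, adjusted p = 1.35e-06). The vri region had 10.6 to 24.1 CPM in clock neurons, against 6.57 to 12.6 CPM in non-clock cells, and was higher by 0.94, 0.48 and 0.74.

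The other core clock starts depended more on the measure. The median summit of the per region lay at -715 bp from the start (upstream). Those of Pdp1 and cwo lay at 640 and 916 bp (downstream). The values of these 3 regions were thus not read at the start itself. The per region changed by 0.34 in DD (SE 0.09, adjusted p = 0.0105), while its values of -0.06 in LD (adjusted p = 0.704) and -0.05 in per01 (adjusted p = 0.63) did not pass; with all summits summed they were 0.38 (adjusted p = 0.0693) and 0.20 (adjusted p = 0.0268), which passed. Pdp1, whose isoform PDP1-ε activates Clk, was lower by limma in LD (-0.24, adjusted p = 0.0147), with -0.13 in DD and -0.16 in per01, which did not pass. Pdp1 had 2 start regions, of which 1 was in the set, and which isoform starts there was not examined. Pdp1 with all summits summed did not pass in LD (-0.09, adjusted p = 0.52) and was lower in DD (-0.23, adjusted p = 0.0456). For cwo, a repressor that acts at E-boxes, the values of 0.09, 0.11 and 0.24 did not pass, while with all summits summed they were 0.52 (adjusted p = 0.0483), 0.50 (adjusted p = 0.0974) and 0.30 (adjusted p = 0.0401), which did. Under that measure 5 of the 6 regions, all but that of Pdp1, were thus higher in clock neurons in LD, DD and per01.

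The second comparison asked whether start regions opened or closed with time of day in clock neurons. In WT flies in DD, 4 constitutive start regions were higher and 0 lower at CT36 than at CT24, with 223 at an unadjusted p under 0.05, against 0.17% higher and 0.509% lower of the 18264 regions tested. In LD, 0 were called in either direction between ZT12 and ZT0 by limma (117 at an unadjusted p under 0.05), against 0.0359% higher and 0.0513% lower of 19486 regions. In per01 flies 0 were called by limma (95 at an unadjusted p under 0.05), and the background was 0% in each direction of 16841 regions. The 95% interval of the change lay within 1.5-fold for 93.3% of the start regions in LD, 89.0% in DD and 88.9% in per01. Distal regions had 3 higher and 45 lower in DD.

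The 4 start regions called in DD were those of tim (upstream start), Argk1, Shawl and klu, and none of the 4 passed with the replicate block (0 start regions called) or with all summits summed (1 called). On leaving out a library, 1 (without CT24 replicate 1) to 31 (without CT36 replicate 3) were called. The upstream tim start had 9.06, 9.96 and 7.83 CPM at CT36, against 4.79, 5.11 and 5.75 CPM at CT24. The log2 change was 0.80 (SE 0.15, adjusted p = 0.0605 by limma). This call was lost without CT36 replicate 1, CT36 replicate 2, CT24 replicate 1 or CT24 replicate 2 (adjusted p = 0.155 to 0.265), with the replicate block (adjusted p = 0.15), with all summits summed (adjusted p = 0.18) and in one fit over all libraries (adjusted p = 0.106). In LD the same region had 10.1, 7.71, 11.1 and 7.52 CPM at ZT12, against 5.60, 4.02, 4.95 and 6.01 CPM at ZT0, with a change of 0.80 (SE 0.18) that did not pass over all regions (adjusted p = 0.173). The region did pass in LD in one fit over all libraries (adjusted p = 0.0188 by limma) and with the replicate block (adjusted p = 0.07). In per01 it had 9.21, 14.1, 11.6 and 12.7 CPM at CT36, against 10.1, 11.4, 10.3 and 11.3 CPM at CT24, a change of 0.12 that did not pass (adjusted p = 1.0). The difference between genotypes in the change with time was -0.68 (SE 0.22, adjusted p = 0.765), so it was not shown to differ.

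Argk1 encodes arginine kinase, the phosphagen kinase of insects. Its start region had 18.9, 19.8 and 18.3 CPM at CT36, against 14, 13.5 and 12.1 CPM at CT24 (log2 change 0.56, SE 0.09, adjusted p = 0.0212, with 0.101 under the replicate block and 0.107 with all summits summed). In LD the values were 17.6, 17.1, 18.6 and 21.7 CPM at ZT12, against 12.6, 13.6, 16.5 and 15.7 CPM at ZT0 (0.35, adjusted p = 0.825), and in per01 the change was 0.01 (adjusted p = 1.0). At each time point the clock neurons lay above the non-clock cells, which had 7.23 to 11.2 CPM, and the log2 change between cell types passed in the 3 comparisons.

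Shawl, a potassium channel gene, had 23.4, 21.5 and 24 CPM at CT36, against 16.6, 17.1 and 18.1 CPM at CT24 (0.44, SE 0.09, adjusted p = 0.0894), a call lost on leaving out any of these libraries but CT24 replicate 3 (adjusted p = 0.102 to 0.345), with the replicate block (adjusted p = 0.141), with all summits summed (adjusted p = 0.264) and in one fit over all libraries (adjusted p = 0.137). Its change in LD was -0.01 and in per01 0.00. For klu, a zinc finger gene, the change was 0.42 in DD (adjusted p = 0.0949, with 0.155 for scaling by total tags and 0.209 for summed summits), -0.08 in LD and 0.06 in per01. With the interaction of time and genotype, 0 start regions were called by limma (121 at an unadjusted p under 0.05), against 0.0423% higher and 0.0047% lower of 21272 regions tested.

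The downstream tim start moved the same way without passing the main test: 19.4, 21.3 and 16.1 CPM at CT36, against 9.36, 13.7 and 15.3 CPM at CT24 (0.62, adjusted p = 0.173), and 17.0, 15.4, 19.9 and 16.8 CPM at ZT12, against 11.3, 12.1, 10.3 and 15.3 CPM at ZT0 (0.50, adjusted p = 0.369). In DD it passed when only regions called in all libraries were tested (adjusted p = 0.00259 by limma) and without CT24 replicate 3 (0.80, adjusted p = 0.0805). In LD it passed without ZT0 replicate 4 (0.63, adjusted p = 0.0892). In per01 the change was 0.05, and the interaction of time and genotype was called in 0 start regions. The changes of per (0.12 in LD, 0.13 in DD, -0.09 in per01), vri (0.39, 0.27, -0.05) and cwo (-0.31, -0.19, 0.09) did not pass. Of the gene lists, the tim call in DD was the only call by time.

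**Figure D3:**
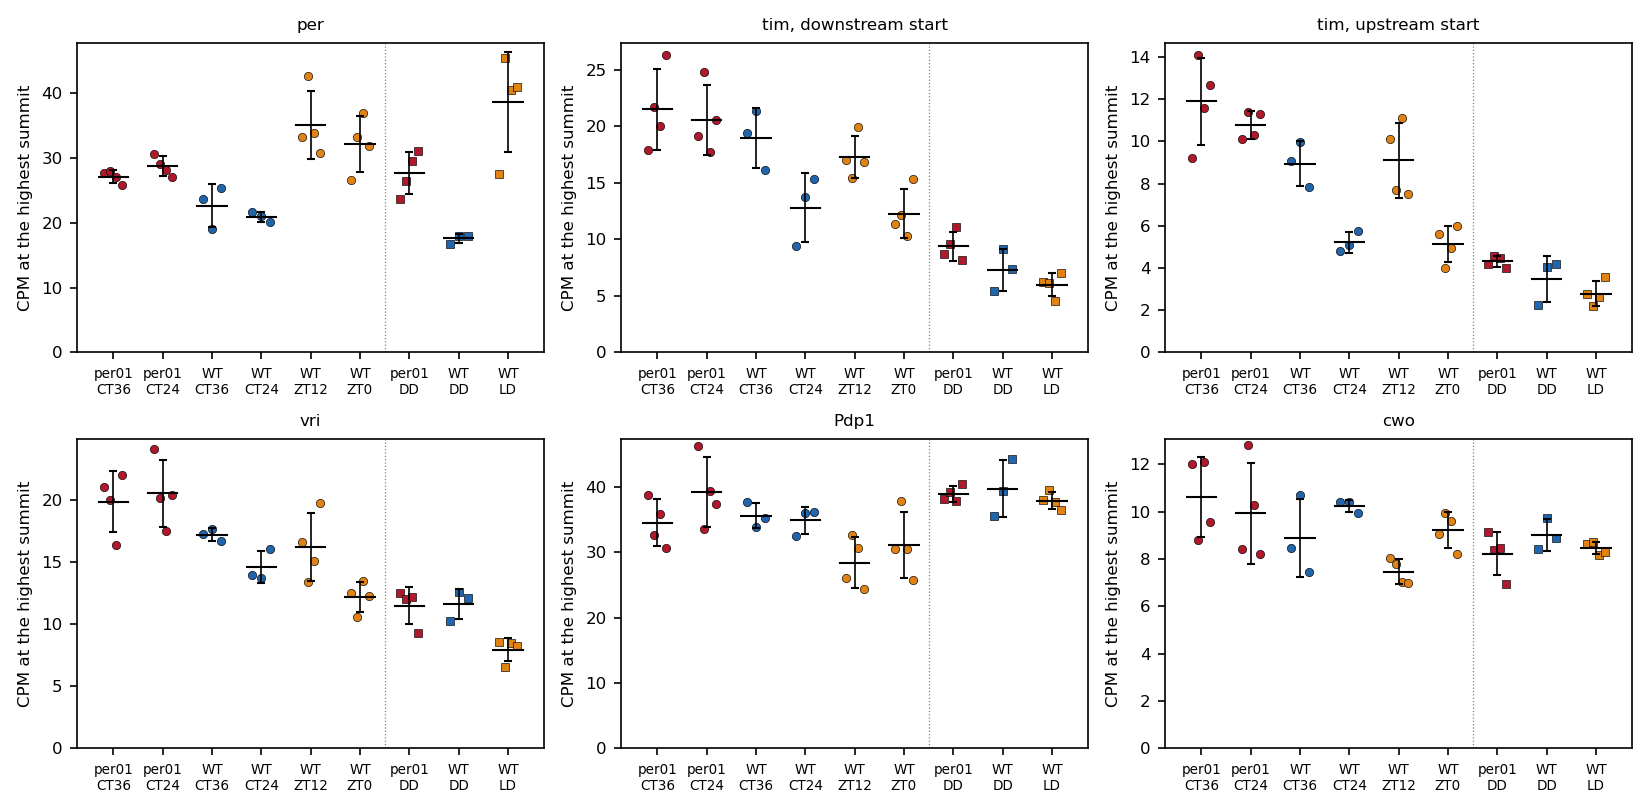
Level (CPM, vertical axis) of the 6 constitutive start regions of core clock genes in each group, with each point 1 library and bars the mean ± SD. Both tim starts are higher in clock neurons than in non-clock cells, and the upstream start is at 7.83 to 9.96 CPM at CT36, against 4.79 to 5.75 CPM at CT24.

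The third comparison set DD against LD in WT flies, separately in each cell type. In clock neurons 483 start regions were higher and 578 lower in DD, against 8.04% higher and 13.8% lower of 19397 regions tested. In non-clock cells 253 were higher and 471 lower, against 6.96% and 8.82% of 23023. Few of the changes were large, with 44 start regions changed over 1.5-fold in clock neurons, against 64 in the non-clock comparison. The count in non-clock cells leaned on single libraries, being 205 without DD replicate 2 and 1180 without LD replicate 1.

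Nearly all the lower regions lay on the X chromosome. There 6 of 721 start regions were higher and 522 lower in clock neurons, and 6 were higher and 429 lower in non-clock cells, so X held 90.3% and 91.1% of the lower calls. On the autosomes 477 were higher and 56 lower in clock neurons, and 247 and 42 in non-clock cells, of 3612. The median log2 change of X start regions was -0.32 in the clock neuron fit and -0.31 in the non-clock fit, against 0.03 and 0.07 on the autosomes. Distal regions on X shifted by -0.27 and -0.32. Fitted without X and Y, an alternative chosen after seeing these values, the counts were 380 higher and 31 lower in clock neurons, and 103 and 13 in non-clock cells. The split also moved with scaling by total tags in clock neurons (660 higher, 340 lower).

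The shift was present library by library. For each library, the deviation of a start region from its own mean log2 level over the 33 libraries was taken, and the median over chromosomes 2 and 3 was subtracted from the median over X. In per01, which was kept in DD and labelled as male, this difference was -0.15 ± 0.04 (SD, n = 12, -0.19 to -0.06). It was -0.12 ± 0.04 in the WT DD libraries (SD, n = 9, -0.21 to -0.07) and 0.24 ± 0.10 in the LD libraries (SD, n = 12, 0.08 to 0.36), and the DD and LD ranges did not overlap. Of the 16 regions on Y, 1 to 12 were called in a per01 library, 1 to 9 in a WT DD library and 1 to 3 in an LD library.

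Against this shift, the start regions of both roX genes were higher in DD. The lncRNA:roX2 region had 9.97, 7.74 and 8.19 CPM at CT36 and 6.42, 9.36 and 6.82 CPM at CT24, against 2.91, 3.36, 4.12 and 2.60 CPM at ZT12 and 4.89, 4.52, 3.30 and 2.74 CPM at ZT0. In non-clock cells it had 9.75, 10.3 and 12.1 CPM in DD, against 7.41, 3.79, 4.51 and 6.00 CPM in LD. No DD library overlapped the LD libraries of its cell type, and the log2 changes were 1.11 (SE 0.15, adjusted p = 0.000192) and 1.02 (SE 0.19, adjusted p = 0.0128). For lncRNA:roX1 the levels were 8.01 to 10.8 CPM in per01 libraries and 7.96 to 11.6 CPM in WT DD libraries, against 3.98 to 7.49 CPM in LD libraries, with changes of 0.75 in clock neurons (SE 0.11, adjusted p = 0.000259) and of 0.90 in the other cells (SE 0.12, adjusted p = 0.00394), the last of which did not pass with all summits summed (0.50, adjusted p = 0.197). The sex makeup of the WT libraries is not given in the sources used here, so it cannot be told apart from the light regime. The X:autosome ratio, the roX regions and the X-linked genes below all moved with the same libraries.

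**Figure D4:**
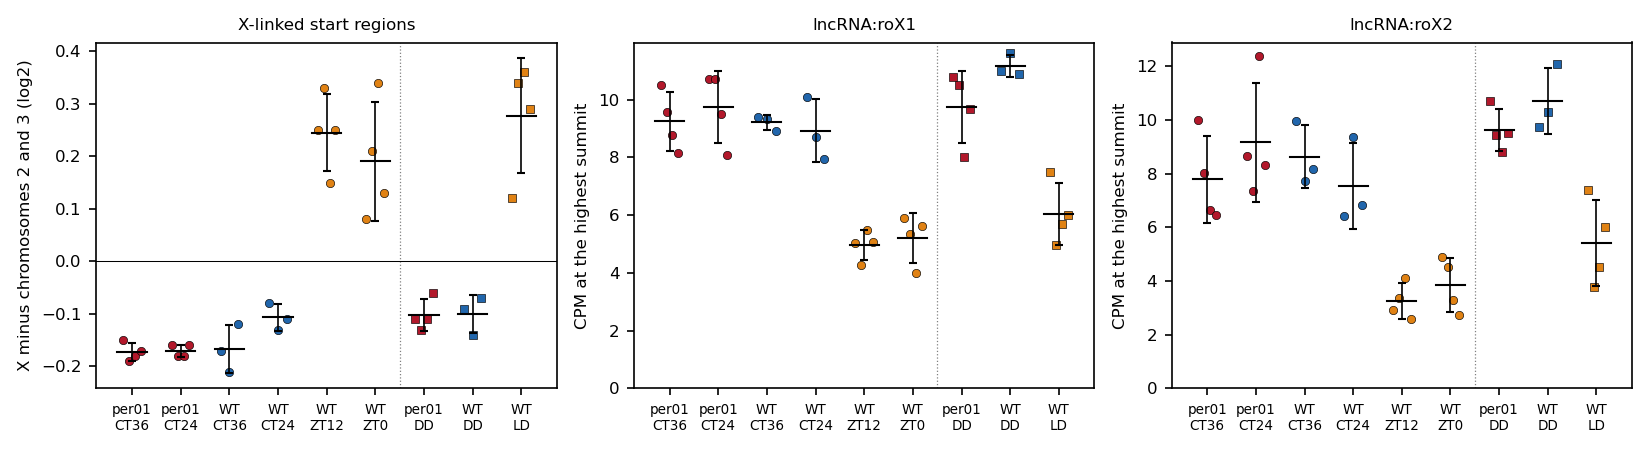
Left, median log2 deviation of constitutive start regions on X from their own means over the 33 libraries, minus that on chromosomes 2 and 3, in each library; right, level (CPM) of the lncRNA:roX1 and lncRNA:roX2 start regions. Points are libraries (circles, clock neurons; squares, non-clock cells; red, per01; blue, WT in DD; orange, WT in LD) and bars the mean ± SD; the X difference is below 0 in the 21 DD libraries and above 0 in the 12 LD libraries.

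Further X-linked regions rose with roX2. The region of nod, a kinesin-like gene next to lncRNA:roX2, changed by 0.71 and 0.70 in clock neurons and non-clock cells, and that of OtopLa, an otopetrin proton channel, by 0.67 and 0.58. The median summit of the nod region lay at -524 bp from its start (upstream), so its values were not read at the start itself. The remaining named rise in clock neurons was autosomal, at rdx, a BTB adaptor of a ubiquitin ligase (0.55). In non-clock cells foxo, the transcription factor of insulin signalling, had 4.62, 6.06 and 4.78 CPM in DD, against 3.73, 3.26, 2.51 and 2.48 CPM in LD (0.79, SE 0.17, adjusted p = 0.0203), which did not pass without DD replicate 2 (0.68, adjusted p = 0.127). The msl-1 region, of a scaffold protein of the dosage compensation complex, also rose, by 0.25 (adjusted p = 0.0751) and 0.54, and the value in clock neurons did not pass with all summits summed (adjusted p = 0.11). Of the 3 start regions of dosage compensation proteins, 1 was higher and 0 lower in each cell type, with medians of 0.05 and 0.18.

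The regions that fell most in clock neurons were X-linked, led by Septin1, a cytoskeletal GTPase. It had 2.49 to 4.57 CPM in the 6 DD libraries (median 3.03), against 4.49 to 6.97 CPM in the 8 LD libraries (median 6.02), which overlapped by 1 library, and the log2 change was -0.95 (SE 0.14, adjusted p = 0.000299). The regions of CG12112 (-0.85 in clock neurons, -0.86 in non-clock cells), tRNA:Arg-TCG-2-1 (-0.82, -0.81), lncRNA:CR45605 (-0.81, -1.01) and tRNA:Gln-TTG-2-1 (-0.79, -1.07) followed. The tRNA:Arg-TCG-2-1 change in clock neurons did not pass with all summits summed (-0.39, adjusted p = 0.321). In non-clock cells kirre, a cell adhesion gene, fell by 1.03 on the log2 scale.

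The period gene lies on X as well, and the median summit of its region lay at -715 bp from the start. Its start region had 23.6, 19.0 and 25.3 CPM at CT36 and 21.6, 21.1 and 20.1 CPM at CT24, against 33.2, 42.7, 33.9 and 30.7 CPM at ZT12 and 26.6, 33.2, 37.0 and 31.9 CPM at ZT0. The DD and LD libraries did not overlap, and per changed by -0.70 (SE 0.08, adjusted p = 0.000112). In non-clock cells per had 16.7, 18 and 18 CPM in DD, against 27.5, 45.4, 40.5 and 41.0 CPM in LD (-1.10, SE 0.15, adjusted p = 0.00558). Both changes exceed the X medians of -0.32 and -0.31. Neither passed with all summits summed, at -0.17 in clock neurons (adjusted p = 0.364) and -0.46 in non-clock cells (adjusted p = 0.343).

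The clock neuron and non-clock libraries of a light regime are different libraries, though the labels do not say whether they came from the same brains. Of the start regions called in DD against LD, 450 were called in both cell types (42.4% of those in clock neurons, 62.2% of those in non-clock cells), 445 of them in the same direction. On X all 379 shared calls had the same direction. On the autosomes 71 were shared, of which 61 were higher in both, 5 lower in both and 5 opposite. In clock neurons the rises were frequent among strong regions, where 324 of the 867 regions of the highest 20% were higher and 84 lower (37.4% and 9.69%, median 0.11), but not in non-clock cells, where 22 were higher and 109 lower (2.54% and 12.6%, median -0.05). Of all start regions, 11.1% were higher and 13.3% lower in clock neurons, and 5.84% and 10.9% in non-clock cells. Synaptic genes (19 regions) had 9 higher and 4 lower in clock neurons (1 and 3 with all summits summed), and promoter and boundary factors (9 regions) 4 higher and 0 lower (2 and 0). Pdp1 rose by 0.17 in clock neurons (adjusted p = 0.0864), a call lost on leaving out each of 9 libraries in turn (adjusted p = 0.102 to 0.189), with the replicate block (adjusted p = 0.198), with all summits summed (adjusted p = 0.153) and without X and Y (adjusted p = 0.127). The vri region rose by 0.56 in non-clock cells (adjusted p = 0.0138).

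The fourth comparison set per01 against WT in DD. In clock neurons 202 start regions were higher and 296 lower in per01, against 7.97% higher and 6.28% lower of 17926 regions tested. In non-clock cells 89 were higher and 104 lower, against 2.53% and 2.43% of 22875, and this count was 82 in all without WT DD replicate 1 and 299 without per01 DD replicate 1. Changes over 1.5-fold were called in 29 and 31 start regions. The split in clock neurons was 339 higher and 117 lower with scaling by total tags and 179 and 151 with summed summits, and that in non-clock cells 57 and 135, and 111 and 41. The strain histories of the per01 and WT flies are not given in the labels, so an effect of the allele and one of linked or background differences cannot be told apart. The per01 flies were labelled male and the labels give no sex for WT flies, so sex cannot be told apart from genotype either.

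A set of regions changed in both cell types. Of the start regions called, 114 were called in both (22.9% of those in clock neurons, 59.1% of those in non-clock cells), all in the same direction, with 54 higher and 60 lower in per01. The largest autosomal rise was at pbl, a gene required for cytokinesis, with 7.48, 6.26, 6.66 and 8.38 CPM in per01 at CT36 and 6.86, 6.76, 8.55 and 6.09 CPM at CT24, against 3.55, 3.56 and 2.43 CPM in WT at CT36 and 2.50, 3.37 and 2.84 CPM at CT24. No libraries overlapped, and pbl changed by 1.15 in clock neurons (SE 0.13, adjusted p = 2.16e-05) and by 0.76 elsewhere (SE 0.13, adjusted p = 0.00827), that is in non-clock cells, where it had 7.57, 8.49, 5.93 and 5.98 CPM in per01, against 3.97, 4.43 and 4.09 CPM in WT.

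RpL36A, a protein of the large ribosomal subunit, behaved likewise. It had 6.46 to 12.8 CPM in the per01 clock neuron libraries, against 2.88 to 5.98 CPM in WT, and 10.4, 10.4, 10.3 and 8.56 CPM in per01 non-clock cells, against 5.80, 6.06 and 5.16 CPM in WT. The changes were 0.99 (SE 0.14, adjusted p = 0.000173) and 0.83 (SE 0.10, adjusted p = 0.000743), without overlap. The regions of Myo81F, a myosin gene (0.89 and 0.93), Psi, a splicing regulator (0.87 and 0.62), and pav, the kinesin that acts with pbl in cytokinesis (0.86 and 0.75), rose as well. The Myo81F change in non-clock cells did not pass with all summits summed (adjusted p = 0.109) or without WT replicate 1, WT replicate 3, per01 replicate 2 or per01 replicate 4 (adjusted p = 0.105 to 0.247).

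Autosomal start regions lower in per01 included Asator, a kinase of the tau-tubulin kinase family, with 3.62, 6.46, 4.25 and 4.31 CPM at CT36 and 4.72, 6.29, 4.66 and 3.88 CPM at CT24 in per01, against 7.91, 6.58 and 8.64 CPM at CT36 and 10, 8.16 and 7.74 CPM at CT24 in WT. The clock neuron libraries did not overlap for Asator, and the change was -0.85 (SE 0.15, adjusted p = 0.00111), with -0.29 (adjusted p = 0.37) when all summits were summed. CASK, a scaffold protein of synapses (-0.67), SP1029 (-0.64, with -0.43 in non-clock cells), Dad1, a subunit of the oligosaccharyltransferase (-0.60 and -0.81), and Mvk, mevalonate kinase (-0.59 and -0.71), were lower too, although Dad1 in non-clock cells did not pass without WT replicate 1 (-0.71, adjusted p = 0.108). In non-clock cells the other named falls were CG42837 (-0.83) and CG31957 (-0.74, with -0.46 in clock neurons).

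On X, the largest rise belonged to CG13375, which had 17.4 to 24.1 CPM in the 8 per01 clock neuron libraries, against 8.59 to 11.6 CPM in the 6 WT libraries, and 17.6, 16.8, 16.5 and 20.7 CPM in per01 non-clock cells, against 9.44, 8.22 and 7.62 CPM in WT. The change was 1.05 (SE 0.08, adjusted p = 1.44e-07) and 1.12 (SE 0.11, adjusted p = 0.000135). G9a, a histone H3K9 methyltransferase (0.88 and 0.77), and Ptpmeg2, a protein tyrosine phosphatase (0.77 and 0.91), followed.

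Tob, an antiproliferative protein, had the largest fall on X. It had 12.5 to 16.4 CPM in per01 clock neurons, against 22.0 to 26.4 CPM in WT, and 14.8, 14.4, 12.5 and 14.1 CPM in per01 non-clock cells, against 23.9, 22.1 and 26.4 CPM in WT, with changes of -0.86 (SE 0.06, adjusted p = 8.28e-08) and -0.75 (SE 0.08, adjusted p = 0.000355). Tob was followed by snoRNA:Psi28S-3342 (-0.59 and -0.66) and l(1)10Bb, a spliceosome component (-0.57 and -0.60, with a value of -0.29 in clock neurons that did not pass when all summits were summed, adjusted p = 0.182).

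Of the 6 core clock start regions, those of tim, per and vri were higher in per01 clock neurons, and those of Pdp1 and cwo did not pass. The upstream tim start, with the values given above, changed by 0.66 in clock neurons (SE 0.13, adjusted p = 0.00421) and the downstream one by 0.37 (SE 0.14, adjusted p = 0.0915). The per region had 25.8 to 30.6 CPM in per01 clock neurons, against 19.0 to 25.3 CPM in WT DD (0.30, SE 0.07, adjusted p = 0.00867), and 23.7, 26.4, 29.5 and 31.1 CPM in per01 non-clock cells, against 16.7, 18 and 18 CPM in WT (0.69, SE 0.09, adjusted p = 0.00203). The vri region changed by 0.28 in clock neurons (adjusted p = 0.0742). With all summits summed, the upstream tim start and per kept their calls in clock neurons, while the downstream tim start (adjusted p = 0.144) and vri (adjusted p = 0.35) did not pass, nor did per in non-clock cells (0.81, adjusted p = 0.127). The downstream tim start and vri also lost their calls with the replicate block (adjusted p = 0.178 and 0.18) and on leaving out each of 8 and 6 of the 14 libraries in turn.

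Over the 10 comparisons without an interaction, 1257 constitutive start regions (29.0%) passed in none, against 725 distal regions (15.4%). These comparisons share libraries and are not independent.

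The sequence windows of 250 bases before to 50 after the start described the set further. A DRE was present in 10.5% of windows, against 6.77% of all 23697 annotated starts and 2.94% of the 13985 starts that lay in no merged region. The Motif 1 core was in 11.7%, against 5.63% and 1.18%, and GAGA repeats were in 13.8%, against 7.08% and 5.24%. The Motif 7 core was in 20.8%, against 14.9% and 11.3%, the E-box in 4.96%, against 4.09% and 3.37%, the VP-box in 2.05%, against 2.06% and 2.02%, and the TATA string in 35.1%, against 41.4% and 43.3%. The DRE matches had a median position of 42 bp upstream of the start and the Motif 1 matches one of 8 bp upstream. Regions holding starts on both strands had a DRE in 16% and a Motif 1 core in 18%.

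The 228 regions higher in clock neurons in the 3 comparisons were poor in these elements, with a DRE in 1.32% and a Motif 1 core in 0.439% of windows, and rich in GAGA repeats (21.5%), with a median GC content of 51.0%, against 41.3% in the set as a whole. They held starts on both strands in 4.82% of cases. The 279 regions lower in clock neurons had a DRE in 6.09%, a Motif 1 core in 8.96%, GAGA repeats in 20.1% and an E-box in 8.24%. The 1731 regions that passed in none had a DRE in 12.8%, a Motif 1 core in 13.3% and GAGA repeats in 11%. These shares describe the groups and were not tested.

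**Figure D5:**
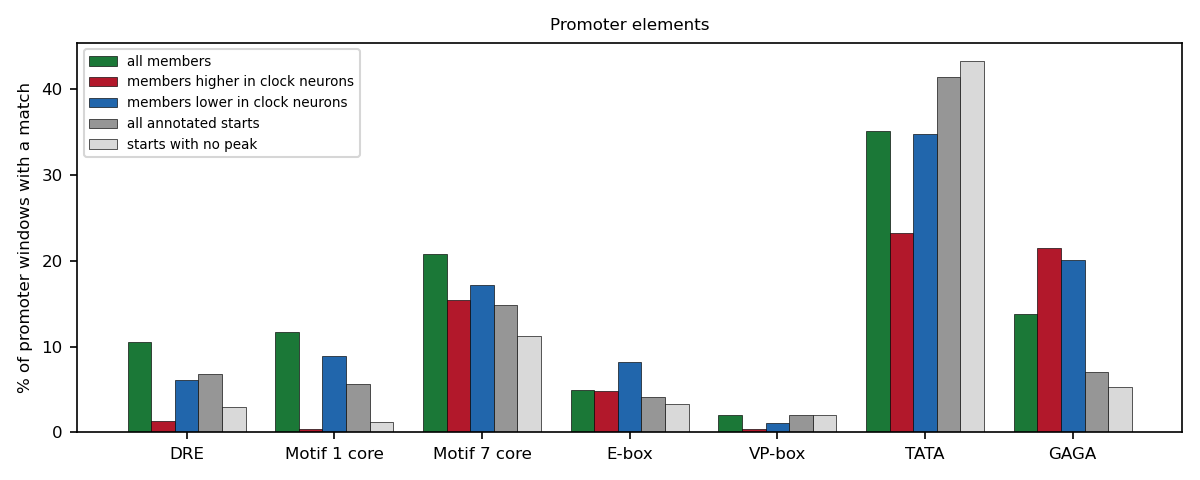
Percentage of windows (250 bases before to 50 after the start) that hold each of the 7 motifs, for all constitutive start regions, those higher and those lower in clock neurons in the 3 comparisons, all annotated starts, and starts in no merged region. DRE and Motif 1 are in 10.5% and 11.7% of constitutive windows and in 1.32% and 0.439% of those higher in clock neurons.

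Read the other way, 454 start regions with a DRE had 23, 15 and 12 higher and 89, 146 and 64 lower in clock neurons in LD, DD and per01. The lower calls were 19.6%, 32.2% and 14.1% of them, against 24.6%, 26.1% and 20.1% of all start regions. The higher calls were 5.07%, 3.3% and 2.64%, against 10.7%, 12.0% and 8.31%. The 507 with a Motif 1 core had 12, 7 and 5 higher (2.37%, 1.38% and 0.986%) and 112, 200 and 76 lower (22.1%, 39.4% and 15.0%). The 215 with an E-box had 23, 25 and 14 higher (10.7%, 11.6% and 6.51%) and 61, 58 and 54 lower (28.4%, 27.0% and 25.1%), and 1 of them was called by time in DD. With all summits summed the counts with a DRE were 80, 64 and 62 higher and 37, 84 and 43 lower, and those with a Motif 1 core 72, 64 and 47 higher and 51, 100 and 45 lower, so the direction of both groups depended on the measure. GAGA repeats followed the level: they were in 26.6% of the windows of the highest 20%, against 5.43% of the lowest 20%, and in 29.0% of the 483 regions higher in DD than in LD in clock neurons.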

How the data were processed

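ATAC-seq peak lists of 33 libraries were used, 1 list per library, with no columns of values left without a sample (0). According to the submitters' processing notes and the study's methods, the authors trimmed reads with cutadapt 4.1, aligned them to dm6 with Bowtie2 2.4.5, filtered with SAMtools 1.15.1, removed duplicates with Picard 2.27.4 and called peaks per library with MACS2 2.2.7.1. As deposited, each peak has a fold enrichment ratio at its summit, a −log10 p and a −log10 q, which MACS2 computed against the local background, and a score, which is the −log10 q scaled to a whole number; the score and the q entered no result.

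The fold and the −log10 p together fix the number of tags (read ends extended to 74 bp) and the background. Tags were recovered as whole numbers within 0.02 for 100.0% of summits, and for 100.0% of 5000 simulated peaks. The library total follows from the genome-wide background and a genome size of 1.2e+08. Depths are 4.18 M to 36.2 M tags; start regions of low level rest on the fewest tags and have the largest counting error.

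Regions were merged at 1 bp of overlap, and starts came from the dm6 (BDGP6) gene models. A region took its highest summit per library. Scaling used the median of ratios, taken over the 9040 always-called regions, and log2(tags + 1) was fitted by limma 3.58.1 (R 4.3.3, trend option), over the groups compared, with time of day as a term for light and genotype in clock neurons. P-values were adjusted by Benjamini-Hochberg over all regions tested, at a threshold of 0.1, two-sided. The study's own count test needs read counts, which peak lists do not hold.

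Alternatives were scaling by total tags, the sum of all summits, one fit over the 33 libraries, only regions called in all libraries, a summit within 500 bp of a start, a replicate block and leaving out each library. Genes were named by the nearest start and by fixed ranks: the 10 largest and smallest in cell type, 5 in light and genotype (3 in non-clock cells and on X), calls in time, the 5 highest and the 5 most even regions, and the core clock genes. Other genes come from the gene lists; klu, and members named from a list, were chosen after their values were seen. The start regions, lists and tests were chosen with earlier results of these data known.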

Additional observations from a re-analysis of the deposited data

Results flagged for a closer look

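Groups of 4 libraries were examined for the core clock regions and the first-ranked region of each naming rule, without genotype in non-clock cells. The median level of the set and X minus autosomes were examined as well. In 6 of these 108 groups, 1 library lay far from the other 3, where chance alone gives about 1 in 20. Among WT clock neurons at ZT0, replicate 4 had 4.49 CPM at Septin1, against 6.31 to 6.54 CPM in the others, and replicate 2 had 28.3 CPM at Tob, against 21.9 to 22.6 CPM. Among LD non-clock libraries, replicate 1 had 56.7 CPM at pre-rRNA:CR45856, against 65.9 to 66.9 CPM, and 27.2 CPM at lolal, against 24.5 to 24.8 CPM, and replicate 2 had 6.57 CPM at vri, against 8.23 to 8.57 CPM. In per01 non-clock cells, replicate 4 had 9.27 CPM at vri, against 12 to 12.5 CPM.

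The difference between clock neurons and non-clock cells changed with the light regime in 79 start regions by an interaction test with limma. Of the named ones, Septin1 had a clock minus non-clock difference of -0.74 in DD and -0.01 in LD, and the interaction was -0.73 (SE 0.21, adjusted p = 0.0635). CASK had -0.03 in DD and -0.69 in LD (interaction 0.66, SE 0.17, adjusted p = 0.0386). The lncRNA:CR45642 region had 0.27 in DD and -0.18 in LD (interaction 0.45, SE 0.13, adjusted p = 0.0643).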

How the results depend on the processing

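Of 156 results for named regions, 117 passed the threshold and 99 of these did so under every alternative run. Apart from the core clock genes, these regions were named because they had passed in that comparison and were among the most changed. Their passing was thus fixed by the rule, and the counts do not describe the stability of the whole set. Of 2603 alternatives, 2516 stayed on the same side of the threshold, 63 lost the call and 22 gained it. Where neither fit passed, a change of direction was not counted. The per region turned round between cell types with all summits summed, at 0.38 in LD and 0.20 in per01. Start regions called between dusk and dawn in LD were 0, with 1 for summed summits, 6 for one fit over all libraries and 0 to 1 on leaving out a library. In DD they were 4, with 7 for scaling by total tags, 1 for summed summits, 46 for testing only regions called in all libraries (fewer regions tested), 7 for a summit within 500 bp of a start, and 1 (without CT24 replicate 1) to 31 (without CT36 replicate 3) on leaving out a library. For DD against LD the counts were 1061 in clock neurons (698 with summed summits, 411 without X and Y) and 724 in non-clock cells (381 and 116, and 205 without DD replicate 2 to 1180 without LD replicate 1). For per01 against WT they were 498 in clock neurons (330 with summed summits) and 193 in non-clock cells (301 testing only regions called in all libraries, and 82 without WT replicate 1 to 299 without per01 replicate 1). Clock neurons against non-clock cells in DD gave 1648 calls, and 1008 (without non-clock replicate 2) to 1700 on leaving out a library. The interaction of cell type and light gave 79 calls and 120 with scaling by total tags. The fits without X and Y were chosen after seeing the data. X minus autosomes stayed between -0.42 and -0.31 in all settings. Except where fewer regions or libraries entered the fit by construction, the cause was not tested. Whether replicate numbers pair the samples was not settled. Over 51 pairs of libraries with the same number the correlation of deviations was -0.293 to 0.541, over 0.1 in 18. The highest value joined ZT0 clock neurons and LD non-clock cells of replicate 1. Some of the pairs joined different light regimes or genotypes, and libraries with different numbers were not compared. The replicate block gave 2 calls by time in LD, 0 in DD, 916 and 487 in the light comparison and 457 and 190 in the genotype comparison.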

Other observations

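Besides the regions of the naming rule, the interaction of cell type and light was called at CAP, with a value of -0.70 (adjusted p = 0.0284 by limma), and at CG7149, with -0.65 (adjusted p = 0.028); these were chosen after their values were seen. A negative value means a lower difference between clock neurons and non-clock cells in DD than in LD. No other tests were run on them.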
